A study of Mus musculus with 20 samples.

Results

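The 5 genes described here encode enzymes that interconvert, oxidise or re-use ketone bodies: Bdh1, Bdh2, Oxct1, Acat1 and Aacs. They were picked by name from the 55471 gene IDs of each count table, and all 5 were among the 15233 genes with enough reads to be tested. Brown adipose tissue (BAT, brown fat) of mice, whose cells burn fuel to make heat, gave poly(A) RNA for 20 libraries, 5 per group. The groups were mice with a knockout of CEBPB limited to adipose tissue (KO) after 4 h of cold stress, KO mice at room temperature (RT), wild-type mice (WT) after the same cold stress, and WT mice at RT. The labels give the allele only as an adipose-specific CEBPB knockout. The driver of the deletion, strain, age and the temperature of the cold room are not given in the sources used here, nor is whether each library came from its own animal, so the spread between libraries may be technical in part. CEBPB is the transcription factor C/EBP beta, which binds DNA at C/EBP sites and takes part in adipocyte differentiation.

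Ketone bodies are small fuels that the liver makes from fatty acids during fasting and sends to other tissues through the blood. A cell that burns them turns beta-hydroxybutyrate into acetoacetate with Bdh1, activates acetoacetate with a CoA taken from succinyl-CoA by Oxct1, and splits the acetoacetyl-CoA into acetyl-CoA with Acat1, all in the mitochondrion. Aacs instead activates acetoacetate in the cytosol, where its carbon can enter fatty acid and sterol synthesis.

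The libraries held 27.07 to 55.18 M gene counts, of which 28.8% to 36.02% were mitochondrially encoded. Cebpb was at 1.61 to 2.27 CPM (read counts scaled to the size of the library, with TMM factors) in KO cold libraries and 0.208 to 0.856 CPM in KO RT libraries, against 108 to 167 CPM in WT cold and 75.5 to 130 CPM in WT RT libraries, as the labels say. The 8 brown adipocyte markers summed to at least 15200 CPM in every library. WT cold replicate 5 and WT RT replicate 4 lay nearer to the middle of the first principal component (53.9% of the variance) than the other libraries of their groups. Several fitted differences are also given without them, but correlations are not. The 5 genes were chosen with results of these comparisons known. Their differences are therefore given as descriptions, as the log2 difference of the fit to all 4 groups with its standard error (SE), and no p-value is printed for them.

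The start regions of the 2 genes that differed most between temperatures are shown because C/EBP beta is the factor deleted here. Each is the RefSeq window of GRCm38.p6 from 250 bases before to 50 bases after an annotated start, on the plus strand, and capitals mark a match to the C/EBP letters TTGCNNAA on either strand. Bdh1 has a window at each of 2 annotated starts, at chr16:31422047-31422346 and chr16:31428503-31428802, and Aacs has a window at chr5:125475623-125475922.
Bdh1 window 1: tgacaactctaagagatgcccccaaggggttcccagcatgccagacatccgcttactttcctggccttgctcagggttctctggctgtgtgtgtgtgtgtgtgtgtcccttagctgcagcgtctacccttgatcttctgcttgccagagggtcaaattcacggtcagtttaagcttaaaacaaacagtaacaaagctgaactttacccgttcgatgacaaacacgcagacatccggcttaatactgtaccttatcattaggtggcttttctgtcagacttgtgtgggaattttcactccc
Bdh1 window 2: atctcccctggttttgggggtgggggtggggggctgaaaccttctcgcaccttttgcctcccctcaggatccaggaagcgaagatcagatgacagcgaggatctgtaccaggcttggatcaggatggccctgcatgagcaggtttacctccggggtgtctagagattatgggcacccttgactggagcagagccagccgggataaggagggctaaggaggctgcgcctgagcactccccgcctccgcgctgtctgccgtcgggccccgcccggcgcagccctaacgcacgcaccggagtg
Aacs: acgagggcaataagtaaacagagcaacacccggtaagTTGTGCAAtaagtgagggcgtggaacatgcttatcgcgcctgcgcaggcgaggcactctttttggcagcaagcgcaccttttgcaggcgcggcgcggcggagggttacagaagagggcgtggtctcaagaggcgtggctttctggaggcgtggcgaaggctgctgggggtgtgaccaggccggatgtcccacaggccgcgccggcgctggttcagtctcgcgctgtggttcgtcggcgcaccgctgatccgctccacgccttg
The Aacs window held the 8 letters TTGTGCAA at position -213 from the start, a match on the minus strand. Neither Bdh1 window held TTGCNNAA, which occurred in 10.8% of 32851 RefSeq windows of the same length. The Bdh1 windows also lacked the cAMP response letters TGACGTCA (in 1.79% of windows) and their shorter form TGACG (20.8%, which includes every window with the longer form). The same held for the estrogen-related receptor letters TCAAGGTCA (0.423%), the NR4A letters AAAGGTCA (1.51%) and the E-box CACGTG (7.15%), all read on both strands. In the Aacs window none of these other letters occurred. GC made up 48.3% of Bdh1 window 1, 63.7% of Bdh1 window 2 and 63.3% of the Aacs window, against a median of 52.7% over all windows. The window of Bdh2 (chr3:135280971-135281270) held TTGCACAA at position -117, and that of Oxct1 (chr15:4026178-4026477) held none of the letters searched.

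Bdh1, the mitochondrial beta-hydroxybutyrate dehydrogenase, was nearly silent in brown fat at RT and was present in every cold library of both genotypes. Its gene (ENSMUSG00000046598.15) spans chromosome 16, 31422280 to 31458901 on the plus strand of GRCm38. The KO cold libraries held 7.40, 8.08, 7.88, 11.9 and 5.01 CPM, against 0.122, 0.214, 0.0341, 0.182 and 0.327 CPM in the KO RT libraries. All 5 cold libraries of KO lay above all 5 at RT in this gene, and no KO library lay between 0.327 and 5.01 CPM. The WT cold libraries held 3.07, 5.42, 2.68, 8.51 and 0.549 CPM, against 0.122, 0.421, 0.200, 0.103 and 0.253 CPM in the WT RT libraries. The WT groups did not overlap either, but replicate 5 of WT cold, with 23 reads, stood just above replicate 2 of WT RT, with 18 reads.

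The group mean of Bdh1 was 8.06 ± 2.49 CPM in KO cold and 0.176 ± 0.109 CPM in KO RT libraries (SD, n = 5 each), a ratio of 45.9. In WT it was 4.04 ± 3.04 CPM in cold and 0.220 ± 0.127 CPM in RT libraries (SD, n = 5 each), a ratio of 18.4. The fitted log2 differences were 5.48 ± 0.63 for cold in KO and 4.16 ± 0.60 for cold in WT (SE), and the WT value was 4.29 without WT cold replicate 5 and WT RT replicate 4. Both ratios rest on few reads at RT: the 5 KO cold libraries held 1221 Bdh1 reads together and the 5 KO RT libraries 31 (95% exact Poisson interval 21.1 to 44.0), while the 5 WT cold libraries held 818 and the 5 WT RT libraries 44 (32.0 to 59.1). These intervals cover counting error only.

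Between genotypes, Bdh1 in the cold averaged 8.06 CPM in KO against 4.04 CPM in WT, a log2 difference of 1.0 ± 0.45 (SE; 95% interval 0.05 to 1.95). The groups overlapped: WT replicates 2 and 4 lay within the KO range, and the other WT libraries lay under it, with replicate 5 the lowest. The difference was 0.72 without WT replicate 5 and 1.44 without WT replicate 4. At RT the log2 difference of KO against WT was -0.32 ± 0.82 (SE), with a 95% interval of -2.06 to 1.43. It came from 1 to 11 reads per KO library and 4 to 18 per WT library, and differences within that interval could not be told apart at this depth. The cold difference was larger in KO than in WT by 1.32 ± 0.94 on the log2 scale (SE), with a 95% interval of -0.68 to 3.32.

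**Figure D1:**
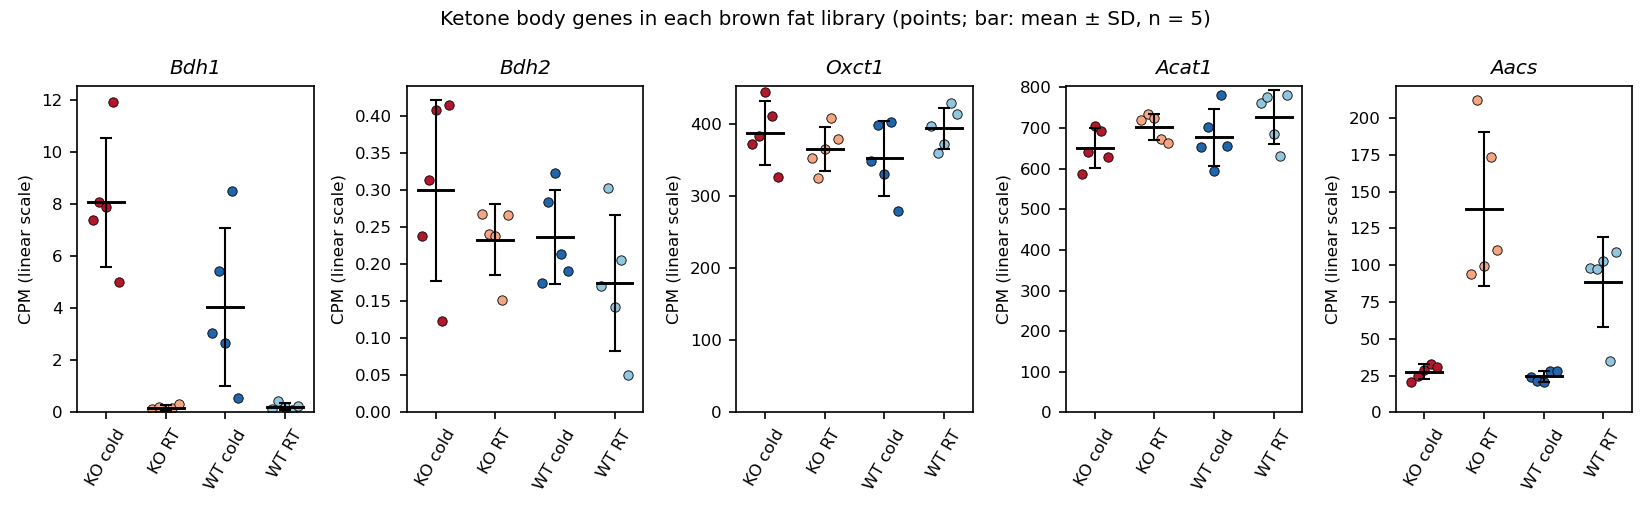
CPM of each of the 5 genes (vertical axes, linear and starting at 0) in the KO cold, KO RT, WT cold and WT RT libraries. Points are libraries and bars the mean with SD (n = 5 per group). Bdh1 was above 0.5 CPM in all 10 cold libraries and under it in all 10 RT libraries, and Aacs was lower in the cold than at RT in both genotypes.

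Oxct1, the CoA-transferase that commits acetoacetate to oxidation, was abundant in all 4 groups and differed little between them. Its gene (ENSMUSG00000022186.14) spans chromosome 15, 4026383 to 4155344 on the plus strand. KO cold libraries held 372, 383, 445, 411 and 326 CPM and KO RT libraries 353, 326, 365, 408 and 379 CPM. WT cold libraries held 349.5, 399, 332, 403 and 279 CPM and WT RT libraries 397, 360.3, 373, 429 and 414 CPM. Each pair of groups overlapped, and WT cold replicate 5 was the lowest of the 20 libraries. The log2 difference was 0.08 ± 0.09 for cold in KO and -0.16 ± 0.09 for cold in WT (SE). It was 0.14 ± 0.09 for KO against WT in the cold and -0.11 ± 0.09 at RT (SE). The interaction was 0.245 ± 0.13 (SE), with a 95% interval of -0.04 to 0.53. The 95% intervals of the 4 differences between groups ran from -0.36 to 0.34 at their outer ends.

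Acat1, the mitochondrial thiolase that splits acetoacetyl-CoA and also acts in isoleucine breakdown, was the most abundant of the 5 genes. Its gene (ENSMUSG00000032047.5) spans chromosome 9, 53580522 to 53610382 on the minus strand. KO cold libraries ranged from 586 to 705 CPM around a median of 642, and KO RT libraries from 664 to 735 CPM around 720.1. WT cold libraries ranged from 594 to 783 CPM around 655, and WT RT libraries from 632 to 780.4 CPM around 762. Every pair of groups overlapped. The log2 difference was -0.11 ± 0.08 for cold in KO and -0.10 ± 0.08 for cold in WT (SE), and the interaction was -0.01 ± 0.11 (SE). Its 95% intervals for cold, -0.27 to 0.05 in KO and -0.26 to 0.06 in WT, hold only differences far smaller than that of Bdh1.

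Bdh2, a cytosolic dehydrogenase of the same short-chain family as Bdh1, was close to the limit of detection. Its gene (ENSMUSG00000028167.15) spans chromosome 3, 135281221 to 135304426 on the plus strand. The KO cold libraries held 4 to 14 reads each, KO RT 5 to 11, WT cold 7 to 15 and WT RT 2 to 13. Means were 0.300 ± 0.123 CPM in KO cold, 0.234 ± 0.048 CPM in KO RT, 0.238 ± 0.064 CPM in WT cold and 0.175 ± 0.092 CPM in WT RT libraries (SD, n = 5 each). All groups overlapped. The log2 difference was 0.34 ± 0.37 for cold in KO and 0.42 ± 0.37 for cold in WT (SE). Their 95% intervals, -0.44 to 1.13 in KO and -0.37 to 1.21 in WT, show how little so few reads can resolve.

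Aacs, the cytosolic acetoacetyl-CoA synthetase, ran opposite to Bdh1 and was lower in the cold in both genotypes. Its gene (ENSMUSG00000029482.4) spans chromosome 5, 125475814 to 125517410 on the plus strand, where the small gene Gm27551 lies on the same strand. KO cold libraries held 20.6, 25.02, 28.8, 33.2 and 31.0 CPM, against 94.4, 212, 99.3, 174 and 111 CPM in KO RT libraries. WT cold libraries held 23.8, 21.3, 20.5, 28.2 and 28.5 CPM, against 98.0, 97.7, 103, 34.6 and 109 CPM in WT RT libraries. Neither genotype's temperature groups overlapped, and WT RT replicate 4 lay closer to the cold libraries than to the other 4 of its group. The cold libraries stayed in a narrow band from 20.5 to 33.2 CPM, while those at RT spread over 34.6 to 212 CPM.

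For cold, the fitted log2 difference of Aacs was -2.32 ± 0.29 in KO and -1.86 ± 0.28 in WT (SE). The mean was 27.7 ± 4.97 CPM in KO cold and 138 ± 52.3 CPM in KO RT libraries, so that the RT mean was 4.98 times the cold mean. It was 24.5 ± 3.75 CPM in WT cold and 88.5 ± 30.5 CPM in WT RT libraries, the RT mean being 3.62 times the cold mean (SD, n = 5 each). Without WT cold replicate 5 and WT RT replicate 4, the WT difference was -2.09. KO exceeded WT by 0.64 ± 0.27 on the log2 scale at RT (SE) with overlapping groups, and by 0.44 without those 2 libraries. In the cold, KO exceeded WT by 0.18 ± 0.28, and the interaction was -0.46 ± 0.39 (SE).

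The fit called 2 of the 5 genes for cold in KO, Bdh1 higher and Aacs lower, where it called 59.2% of all tested genes at an adjusted p below 0.05 (27.5% higher and 31.7% lower). For cold in WT it called Bdh1 and Aacs in the same directions, where it called 56.4% of all genes (26.2% higher and 30.2% lower). These 2 were also the genes whose temperature groups did not overlap, which held for 44.9% of tested genes in KO and 38.2% in WT. Between genotypes the groups of all 5 overlapped, while 4.98% of tested genes did not overlap at RT and 7.00% in the cold. It called 0 of the 5 for KO against WT at RT (2.70% of all genes; 1.38% higher and 1.32% lower), 0 in the cold (7.70%; 3.51% higher and 4.19% lower) and 0 for the interaction (0.742%; 0.427% higher and 0.315% lower), and DESeq2 likewise called 0 of them. At an unadjusted p below 0.05, edgeR's count was 1 at RT, 1 in the cold and 0 for the interaction. Since the genes were chosen with these comparisons known, the counts describe the choice. The median log2 difference of the 5 was 0.08 for cold in KO and -0.10 for cold in WT, against -0.05 in each over all tested genes.

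**Figure D2:**
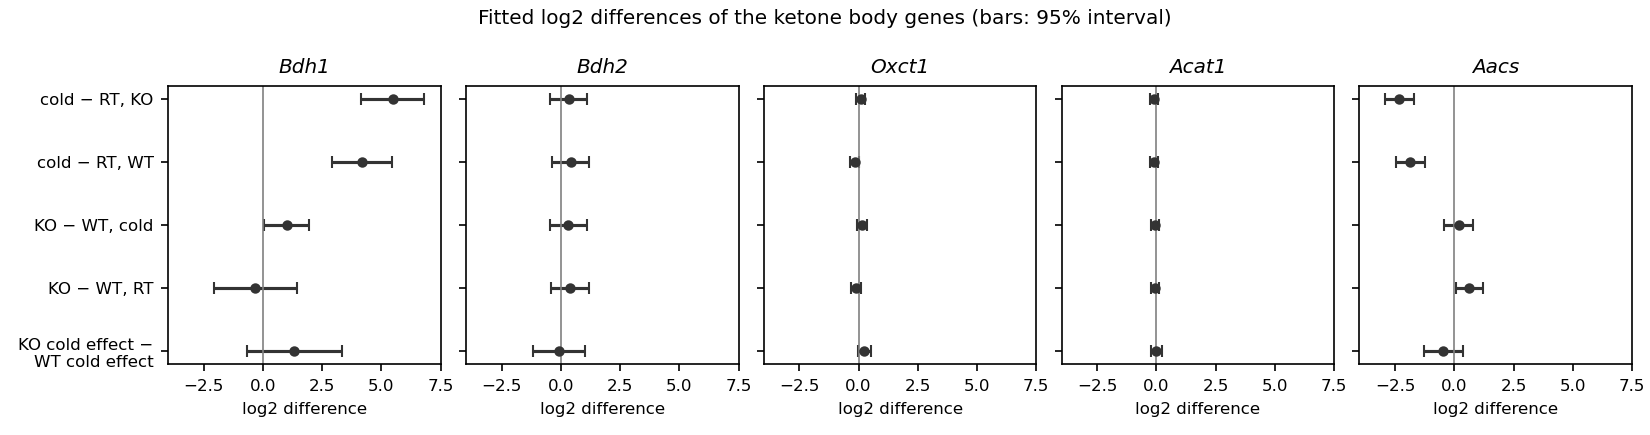
Fitted log2 differences of the 5 genes (horizontal axes) for each comparison, with bars for the 95% interval from the fit to all 20 libraries. Cold minus RT lies far right of 0 for Bdh1 and left of 0 for Aacs in both genotypes, and within 0.4 of 0 for Oxct1 and Acat1.

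Per kilobase of exon, which allows genes to be set against each other, the 5 genes were far apart. The mean level of Acat1 was 173 CPM per kb in KO cold, 187 in KO RT, 180.2 in WT cold and 194 in WT RT libraries. Oxct1 followed at 105, 98.9, 95.2 and 107 CPM per kb in the same groups. The 2 mitochondrial enzymes that follow Bdh1 in ketone oxidation were thus high in all groups. Aacs stood at 7.19 CPM per kb in KO cold, 35.8 in KO RT, 6.35 in WT cold and 23.0 in WT RT libraries. Bdh1 stood at 2.07 CPM per kb in KO cold, 0.0452 in KO RT, 1.04 in WT cold and 0.0565 in WT RT libraries. Even in the cold its level per length was thus far under those of Oxct1 and Acat1, and at RT it was near that of Bdh2, whose group means were 0.0411 to 0.0706 CPM per kb.

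Ordered by group mean, Bdh1 ran KO cold, WT cold, WT RT and KO RT from high to low. Only its step between WT cold and WT RT separated groups without overlap, and KO cold and WT cold differed by 4.02 CPM, more than the larger SD of 3.04 CPM, but overlapped. Aacs ran KO RT, WT RT, KO cold and WT cold. Its step between WT RT and KO cold, 60.8 CPM, had no overlap, and its other steps were within the larger SD. For Oxct1, Acat1 and Bdh2 every step between neighbours was within the larger SD of the 2 groups.

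**Figure D3:**
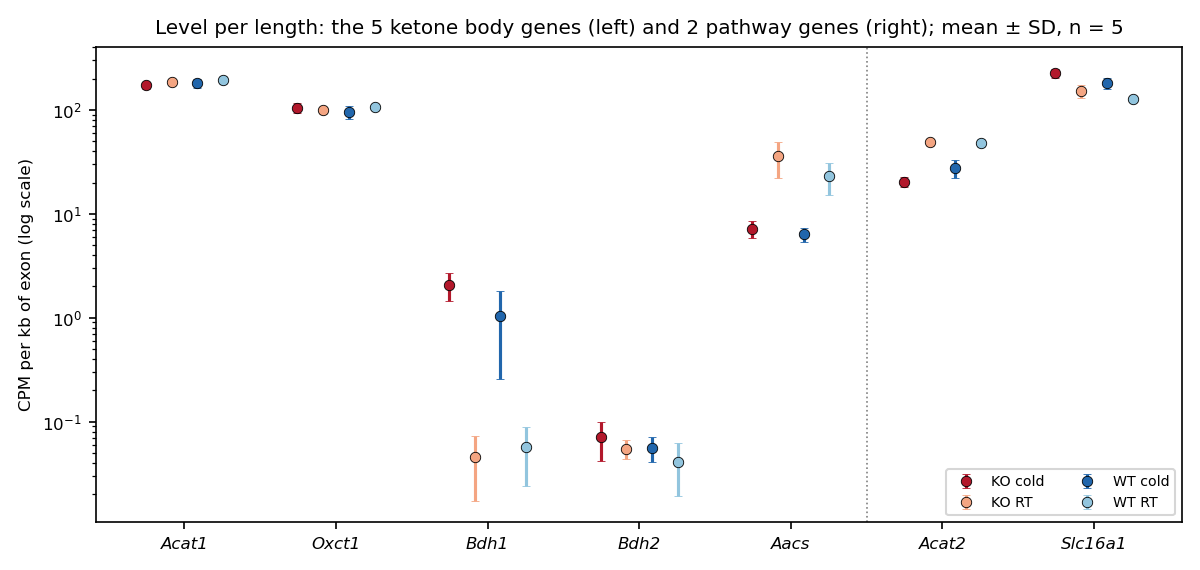
Mean CPM per kb of exon (vertical axis, log scale) with SD (n = 5 per group) of the 5 genes and 2 other genes of the pathway, in KO cold, KO RT, WT cold and WT RT libraries. Acat1 and Oxct1 lie near 100 CPM per kb or above, and Bdh1 lies between 1.04 and 2.07 in the cold and under 0.06 at RT.

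The rest of the pathway was followed in 6 lists with 37 genes. All but Hmgcll1, Ffar3, Oxct2a and Oxct2b had enough reads to be tested (33 genes). The test was edgeR's quasi-likelihood test with Benjamini-Hochberg adjustment over all 15233 genes. These lists too were chosen with earlier results of these data known, so their p-values are no independent support for the 5 genes. In the cold 10 rose and 15 fell in KO, and 9 rose and 11 fell in WT. Of all tested genes 27.5% rose and 31.7% fell in KO, and 26.2% rose and 30.2% fell in WT. These shares also stand beside the cold counts of each list below. The median log2 difference of the 33 genes was -0.16 in KO and -0.13 in WT, against -0.05 over all genes in each. In KO against WT, 2 were higher and 2 lower at RT (2.70% of all tested genes were called), and 1 was higher and 4 lower in the cold (7.70%). Those at RT were Hadhb and Slc16a7 (higher) and Ffar2 and Suclg2 (lower), and those in the cold were Slc16a1 (higher) and Acat2, Ffar2, Suclg2 and Sirt3 (lower). Of the calls at RT, that of Hadhb was lost in 4, that of Slc16a7 in 5 and that of Suclg2 in 8 of 20 fits that left out a library. The Slc16a7 call at RT was also lost with no expression filter (edgeR adjusted p = 0.111), with only the groups compared in the fit (edgeR adjusted p = 0.14) and with a skeletal muscle marker term (edgeR adjusted p = 0.0545), and the Hadhb call with only the groups compared (edgeR adjusted p = 0.0515). For the interaction edgeR called 0 of 33 (6 at an unadjusted p below 0.05) and DESeq2 called 1, Sirt3, a mitochondrial deacetylase.

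The 4 other tested genes on the list of ketone body synthesis were Acat2 and the mitochondrial fatty acid oxidation genes Acaa2, Hadha and Hadhb. Of these, 2 fell in the cold in KO, 1 fell in WT and 0 rose. Acaa2 fell in KO only (log2 -0.23, edgeR adjusted p = 0.00443), a call lost with a skeletal muscle marker term (edgeR adjusted p = 0.308). Acat2, the cytosolic thiolase counterpart of Acat1, fell by 1.28 in KO (edgeR adjusted p = 2.43e-09) and by 0.79 in WT (edgeR adjusted p = 1.3e-06) on the log2 scale. In the cold, Acat2 was also lower in KO than in WT, at 51.6 ± 5.55 CPM against 70.5 ± 14.0 CPM (log2 -0.45, edgeR adjusted p = 0.00778).

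Among 6 monocarboxylate transport genes, 5 rose and 1 fell in the cold in KO, and 4 rose and 1 fell in WT. Of all tested genes 27.5% rose in KO and 26.2% in WT. Slc16a1, the transporter MCT1 that carries ketone bodies and lactate across the plasma membrane, averaged 1003 ± 104 CPM in KO cold against 671 ± 90.7 CPM in KO RT libraries (log2 0.58, edgeR adjusted p = 2.02e-05). In WT it averaged 805 ± 101 CPM in cold against 567 ± 37.9 CPM in RT libraries (log2 0.51, edgeR adjusted p = 0.000109). Its temperature groups did not overlap in either genotype, which held for 44.9% of tested genes in KO and 38.2% in WT. Its partner proteins at the membrane are encoded by Bsg and Emb. Bsg rose by 0.44 in KO (edgeR adjusted p = 1.36e-05) and by 0.26 in WT (edgeR adjusted p = 0.00336), and Emb rose by 0.95 in KO (edgeR adjusted p = 0.000476) and by 0.82 in WT (edgeR adjusted p = 0.0015) on the log2 scale. With the mean log2 CPM of 16 skeletal muscle markers as a term in the fit, the KO difference of Emb was 0.56 and its call was lost (edgeR adjusted p = 0.128). Over the whole table that term lowered the number of genes called for cold in KO from 9019 to 6544. Slc16a7, the transporter MCT2, fell by 1.13 in KO (edgeR adjusted p = 6.72e-06) and by 0.71 in WT (edgeR adjusted p = 0.00082). Slc16a3 and Slc16a6, both near 1 CPM or under, made up the rest of the list: Slc16a3 rose in KO (log2 1.32, edgeR adjusted p = 0.00254) and WT (log2 0.82, edgeR adjusted p = 0.0417), the WT call being lost in 7 of 20 fits that left out a library, and Slc16a6 rose in KO (log2 0.60, edgeR adjusted p = 0.0223), a call lost when both strands were counted together (edgeR adjusted p = 0.232), with no expression filter (edgeR adjusted p = 0.0712), with the muscle marker term (edgeR adjusted p = 0.121) and in 2 of 20 fits that left out a library. In the cold, Slc16a1 was higher in KO than in WT (log2 0.32, edgeR adjusted p = 0.0432), with overlapping groups. That call was lost in 9 of 20 fits that left out a library. It was also lost with no expression filter (edgeR adjusted p = 0.068), with the muscle marker term (edgeR adjusted p = 0.0653) and with only the groups compared in the fit (edgeR adjusted p = 0.0636).

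Both tested receptor genes fell in the cold. Hcar2, the antilipolytic receptor for beta-hydroxybutyrate, averaged 0.829 ± 0.085 CPM in KO cold against 4.99 ± 1.39 CPM in KO RT libraries (log2 -2.59, edgeR adjusted p = 1.12e-07), and 1.04 ± 0.36 CPM in WT cold against 7.15 ± 2.87 CPM in WT RT libraries (log2 -2.79, edgeR adjusted p = 2.57e-08). Ffar2, a receptor for short-chain fatty acids that also binds acetoacetate, fell in the cold in both genotypes and was lower in KO than in WT at both temperatures. At RT it averaged 1.02 ± 0.16 CPM in KO against 2.76 ± 0.44 CPM in WT (log2 -1.43, edgeR adjusted p = 0.00392). The call in the cold (log2 -1.25) was lost without WT cold replicate 5 (log2 -0.89), without that library and WT RT replicate 4 together (log2 -0.89, edgeR adjusted p = 0.0768), without KO cold replicate 4 and with only the groups compared in the fit (edgeR adjusted p = 0.088).

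Genes around Oxct1 in the mitochondrion moved little, as Oxct1 itself did. Of 6 tested genes on the list of succinyl-CoA and ketone use in mitochondria, 1 fell in the cold in KO and 2 fell in WT. These falls were at most 0.17 on the log2 scale. Those 3 calls, of the succinyl-CoA ligase subunits Suclg2 and Sucla2, were lost in 15 to 18 of 20 fits that left out a library. Of 8 regulators and fatty acid entry genes, 4 rose and 3 fell in the cold in KO, and 4 rose and 4 fell in WT. Ppargc1a, the coactivator of mitochondrial genes, had the largest difference of the 33 in both genotypes (log2 3.78 in KO with an edgeR adjusted p of 1.88e-08, and 3.24 in WT with an edgeR adjusted p of 1.03e-07). Fgf21, a fasting hormone with few reads here, rose in both (log2 1.84 in KO, edgeR adjusted p = 0.00179; 2.88 in WT, edgeR adjusted p = 2.19e-05), and the KO call was lost with the muscle marker term (edgeR adjusted p = 0.201). Ppara, the nuclear receptor that drives ketogenic genes in liver, fell by 0.58 in KO (edgeR adjusted p = 0.0167) and by 0.69 in WT (edgeR adjusted p = 0.00622). The KO call of Ppara was lost with the muscle marker term (log2 -0.73, edgeR adjusted p = 0.0571) and in 3 of 20 fits that left out a library, without KO cold replicate 2 or 3 or KO RT replicate 3. Sirt3 fell by 0.63 in KO (edgeR adjusted p = 5.47e-08) and by 0.28 in WT (edgeR adjusted p = 0.00111), and was lower in KO than in WT in the cold (log2 -0.24, edgeR adjusted p = 0.0239), a call lost in 3 of 20 fits that left out a library.

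Of 7 genes of the cytosolic route around Aacs, 1 rose and 6 fell in the cold in KO, and 1 rose and 1 fell in WT. Srebf1, the lipogenic transcription factor, averaged 16.8 ± 2.73 CPM in KO cold against 138 ± 51.5 CPM in KO RT libraries (log2 -3.04, edgeR adjusted p = 1.68e-07). In WT it averaged 22.4 ± 8.21 CPM in cold against 106 ± 30.1 CPM in RT libraries (log2 -2.25, edgeR adjusted p = 4.1e-06). Acss2, Acly, Acaca and Fasn, which make acetyl-CoA and fatty acids in the cytosol, fell in KO with log2 differences of -1.81 to -1.47 (edgeR adjusted p = 2.76e-05 to 0.00478), while in WT their differences of -0.14 to -0.48 did not pass. At RT the log2 difference of KO against WT was 0.84 to 1.21 for these 4, with overlapping groups (edgeR adjusted p = 0.111 to 0.331). In the cold it was -0.53 to -0.11 (edgeR adjusted p = 0.44 to 0.926). The RT level thus differed more between genotypes than the cold level, but neither difference was called. The interaction was not called for any of the 4 either (edgeR adjusted p = 0.169 to 0.457, unadjusted p = 0.00366 to 0.0393). With the muscle marker term the KO calls of Acly, Acaca and Fasn were lost (edgeR adjusted p = 0.0842 to 0.202). That term lowered the calls for cold in KO over the whole table from 9019 to 6544, so such losses were not particular to these genes.

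**Figure D4:**
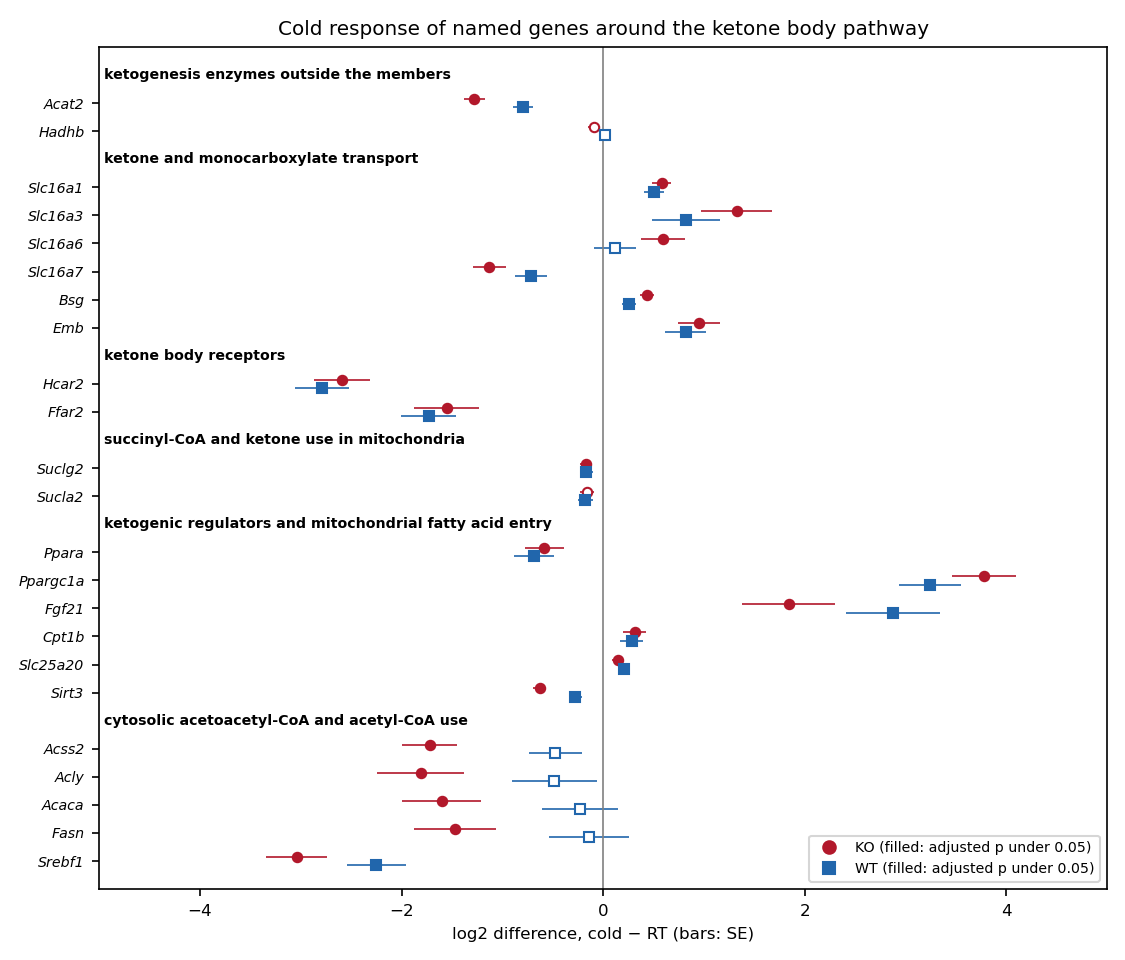
Log2 difference of cold minus RT (horizontal axis, bars are SE) in KO (circles) and WT (squares), by list. The genes are the tested pathway genes that the text names, apart from Acaa2 and Hadha. Filled symbols passed an adjusted p of 0.05. Hcar2, Ffar2 and Srebf1 lie left of -1.5 in both genotypes, and Ppargc1a lies right of 3.

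The pattern of each of the 5 genes was set against 8949 genes with a mean of at least 5 CPM by Pearson correlation of log2 CPM over the 20 libraries. These points share the split between cold and RT, so r describes likeness and carries no p-value. Among the genes most like Bdh1 were Rps6kc1 (r = 0.964), Med23 (0.964), Fbxw11 (0.963) and Ippk (0.961). In all, 606 genes reached an r of 0.9. Fbxw11 averaged 109 CPM in KO cold, 54.4 in KO RT, 88.2 in WT cold and 51.7 in WT RT libraries, with both cold means above both RT means, as in Bdh1. After the group means were subtracted, 0 genes reached 0.9, and the highest were Med17 (0.826), Sec31a (0.800), Alkbh8 (0.799), Zfp654 (0.797) and Arhgap42 (0.792). These values include WT cold replicate 5, the lowest of its group in Bdh1, and the RT libraries with few Bdh1 reads.

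**Figure D5:**
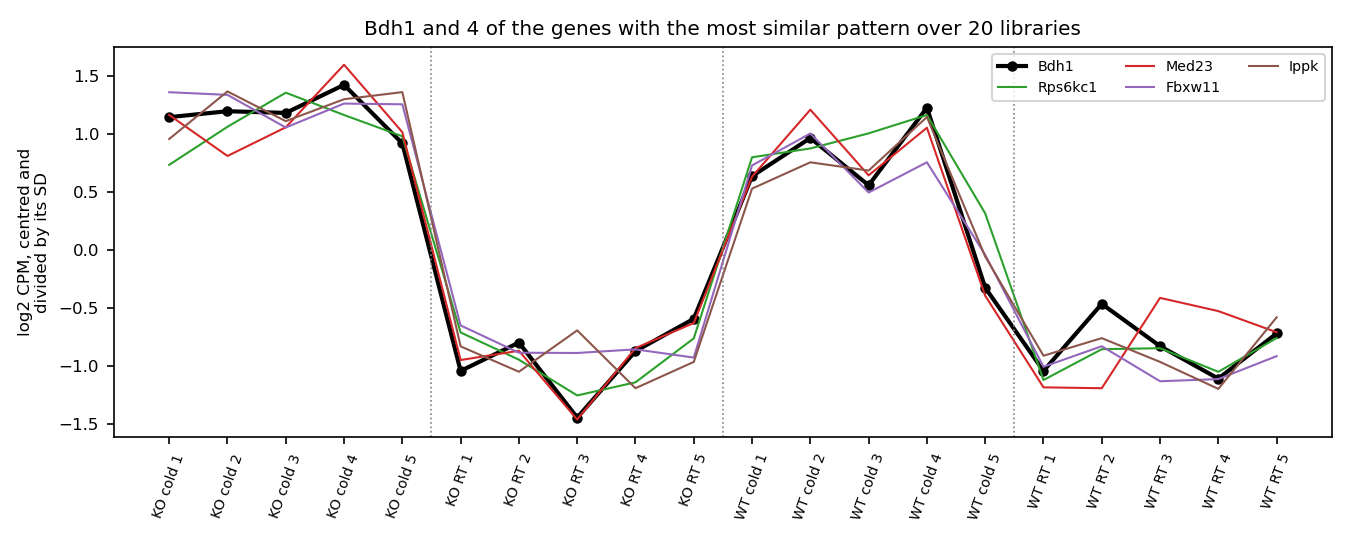
Log2 CPM of Bdh1 (black) and of 4 of the genes most like it over 20 libraries, each centred and divided by its SD (vertical axis), by library (horizontal axis); lines only guide the eye between replicates. All 5 lie high in the KO cold libraries and low in the RT libraries, and WT cold replicate 5 lies between.

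Aacs was most like Siae (r = 0.963), Zswim7 (0.960), Srebf1 (0.959), Rfesd (0.955) and Sdhaf1 (0.955), and 290 genes reached 0.9. Acat1 was most like Bckdha (0.950), Pcca (0.916), Mcee (0.915), Acadl (0.906) and Mut (0.897). The first 4 of those were all that reached 0.9, although the groups of Acat1 itself overlapped throughout. Oxct1 was most like Glud1 (0.850), Acad10 (0.820), Idh2 (0.800), Dmap1 (0.797) and Etfa (0.788). Bdh2, with 2 to 15 reads per library, had no value over 0.745 (Rian), followed by Snx4, Pim1, Arl13b and Ddx42. Among the 5 genes themselves, r over the 20 libraries was -0.79 between Bdh1 and Aacs and 0.54 between Acat1 and Aacs. After the group means were subtracted it was 0.22 for Bdh1 and Aacs, 0.53 for Acat1 and Aacs and 0.56 for Bdh1 and Oxct1. WT cold replicate 5 was the lowest of its group in both Bdh1 and Oxct1, and r was not computed without it.

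Skeletal muscle, which burns ketone bodies, and liver, which makes them, were checked through their markers. In bulk tissue fewer cells of a type and less RNA per cell cannot be told apart. The 16 skeletal muscle markers summed to 7.45 to 18.7 CPM in KO cold libraries against 41.2 to 643 CPM in KO RT libraries, and to 5.87 to 41.7 CPM in WT cold against 10.8 to 1502 CPM in WT RT libraries. Of the 16, 15 fell in the cold in KO and 16 in WT, and Ckm and Myh4 were at 0 in all KO cold libraries. The muscle markers thus ran opposite to Bdh1 and in the direction of Aacs. With the mean log2 CPM of these markers as a term in the fit, the cold difference of Bdh1 was 4.94 in KO and 3.76 in WT, and that of Aacs was -1.98 in KO and -1.59 in WT on the log2 scale. The term was -2.58 to -2.16 in KO cold and 0.611 to 4.72 in KO RT libraries. In KO the fit could therefore not fully separate it from temperature. The hepatocyte list was nearly all Cyp2e1. Its 7 other markers summed to 0.0298 to 0.353 CPM in KO cold, 0.152 to 0.488 CPM in KO RT, 0.171 to 0.787 CPM in WT cold and 0.244 to 0.783 CPM in WT RT libraries. The endothelial markers went both ways in the cold, with 4 of 8 higher and 3 lower in KO, and 3 higher and 3 lower in WT. They summed to 904 to 1048 CPM in KO cold against 616 to 814 CPM in KO RT libraries, and to 800.1 to 1000 CPM in WT cold against 723 to 925 CPM in WT RT libraries, which overlapped in WT, and their part in the Bdh1 difference was not tested. The gene counts do not separate transcripts from the 2 annotated Bdh1 starts.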

How the data were processed

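Per the labels' protocols, RNA of 20 BAT libraries was extracted with a PureLink kit and made into stranded KAPA mRNA libraries. Per the submitters' processing notes, Trim Galore 0.6.0, STAR 2.7.8a and GRCm38.p6 were used; the annotation release is not given in the sources used here. The deposited values are counts, whole reads per gene, for both strands together and each strand. The reverse strand, with 94.5% to 95.7% of stranded gene counts, was used. The 4 entries that name no gene were left out (reads at several places 18.3% to 21.4%, unmapped 3.86% to 5.66%, no gene 3.14% to 4.55%, more than 1 gene 1.02% to 1.16%). Of the 55471 IDs, 55230 matched GENCODE M21 without the version.

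In R 4.3.3, edgeR 4.0.16 filtered genes by filterByExpr (count minimum 10, total minimum 15), scaled libraries by TMM and fitted 1 robust quasi-likelihood model of the 4 groups (16 residual degrees of freedom) for 5 comparisons: cold in KO, cold in WT, KO against WT in the cold and at RT, and the interaction. P-values were Benjamini-Hochberg adjusted over 15233 genes, with a threshold of 0.05. Log2 CPM used a prior count of 2. The script was tested on simulated data. Replicate pairs within groups differed by 15.2 to 107.7 times counting error (chi-square per degree of freedom), and so each library counted as 1 replicate. The 5 genes and all lists were chosen with earlier results of these data known. Named genes were the 5, Cebpb, the pathway genes and, for each of the 5, the 5 with the highest correlation. A few genes are not reported here. Marker lists of brown adipocytes, skeletal muscle, hepatocytes and endothelium are reported; those of macrophages, lymphocytes, fibroblasts and Schwann cells are in the closing section. Alternatives were another normalization, no filter, DESeq2 1.42.0, only the groups compared, a replicate block, unstranded counts, a muscle marker term, and each library left out. One more, without WT cold replicate 5 and WT RT replicate 4, was chosen after seeing the data.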

Additional observations from a re-analysis of the deposited data

Results flagged for a closer look

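In 2 of the 24 groups of 5 libraries examined, 1 library lay far from the other 4, and chance alone gives about 1 in 20. Aacs in WT RT replicate 4 was at 34.62 CPM, with the nearest other library of its group at 97.69 CPM and a gap of 0.845 of the group's range, against a limit of 0.71. That library also had the lowest muscle marker sum of its group, 10.8 CPM against 53.3 to 1502 CPM in the other 4, and its part in the Aacs value was not tested. Bdh2 in KO RT replicate 4 was at 0.1518 CPM, with the nearest at 0.2389 CPM and a gap of 0.746 of the range, on 5 reads against 7 to 11 in the other 4.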

How the results depend on the processing

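The log2 differences of Bdh1, Bdh2, Oxct1, Acat1 and Aacs gave 690 values, 1 per gene, comparison and alternative fit that tested it. All of them moved from the main fit by less than the SD between single libraries of a group. Leaving out 1 of 5 libraries can hardly move a group mean that far, so for those fits the limit is a weak check. Under every alternative 2 of the 5 genes were called for cold in each genotype and 0 in the other comparisons. With only the groups compared in the fit, Bdh2 had too few reads to be tested, and so did Bdh1 for KO against WT at RT. There these genes count as not called without a test. For cold in WT, Bdh1 ranged from 3.75 to 4.55 and Aacs from -2.03 to -1.74 when each library was left out. Genes called over the whole table for KO against WT at RT numbered 411, against 629 with DESeq2 and 267 to 530 with 1 library left out (267 without WT RT replicate 5). For the interaction they numbered 113, against 269 with DESeq2, 74 without WT RT replicate 4 and WT cold replicate 5, and 78 to 125 with 1 library left out. Of 54 pathway calls, each under the alternatives, 1363 of 1512 kept their side of the threshold, 149 lost it and 0 reversed. The muscle marker term lost 18, no filter 9, only the groups compared 6 and leaving out 1 library 100 of 1080, and the cause was not tested. Over all pairs of groups, same-numbered libraries correlated at a median of 0.0147 (-0.184 to 0.274, 30 pairs) against -0.00732 for other pairs (-0.421 to 0.374, 120 pairs). Between KO and WT in the cold, same-numbered pairs ran from -0.00507 to 0.274 and other pairs from -0.245 to 0.156. At RT they ran from -0.17 to 0.224 and from -0.421 to 0.374. A pooled median cannot exclude pairing of genotypes within a temperature. With the replicate block the genes called were 8958 for cold in KO, 8491 for cold in WT, 1078 for KO against WT in the cold, 383 at RT and 94 for the interaction, and 2 pathway calls were lost, Cpt1b for cold in WT (edgeR adjusted p = 0.0515) and Slc25a20 for cold in KO (edgeR adjusted p = 0.0581). Depth limits Bdh1 at RT and Bdh2 in all groups.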

Other observations

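Marker sums of 4 further cell types are given beside the 5 genes, and their part in those genes' differences was not tested. The 8 macrophage markers summed to 114 to 149.6 CPM in KO cold, 105 to 164 CPM in KO RT, 94.6 to 143 CPM in WT cold and 90.8 to 121 CPM in WT RT libraries. The 8 lymphocyte markers summed to 1.26 to 2.69 CPM in KO cold, 2.34 to 5.06 CPM in KO RT, 1.18 to 2.46 CPM in WT cold and 2.10 to 3.86 CPM in WT RT libraries. The 8 fibroblast and adipocyte progenitor markers summed to 584 to 668 CPM in KO cold, 495 to 660 CPM in KO RT, 465 to 527 CPM in WT cold and 409 to 512 CPM in WT RT libraries. The 8 Schwann cell markers summed to 219 to 346 CPM in KO cold, 171 to 200.3 CPM in KO RT, 154 to 279 CPM in WT cold and 119 to 169.9 CPM in WT RT libraries.

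Oxct2b, a testis paralog of Oxct1, was too low to be tested, at 0.253 ± 0.133 CPM in KO cold, 0.0287 ± 0.0279 CPM in KO RT and 0.127 ± 0.040 CPM in WT cold libraries (SD, n = 5 each), and at 0 reads in all WT RT libraries. Oxct2a, its close copy, had 0 reads in all 20 libraries, and reads that match both copies equally were not assigned to either, so the level of the pair is uncertain.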
